A study of Mus musculus with 32 samples.

Results

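The genes described here handle retinoids or bind retinoic acid in mouse ES (mES) cells turned towards primitive endoderm (PrE) by a pulse of GATA6. They were chosen by symbol and number 9 of the 54233 rows of the expression table. *Crabp1* and *Crabp2* encode cytosolic carriers of retinoic acid, *Rdh10* and *Dhrs3* enzymes that interconvert retinol and retinaldehyde, and *Aldh1a2* the dehydrogenase that makes retinoic acid from retinaldehyde. *Cyp26a1* encodes a hydroxylase that clears retinoic acid, and *Rara*, *Rarb* and *Rarg* the nuclear receptors (RARs) for it. Of these 9 genes, 8 reached 10 normalized counts in 4 or more samples and were tested among the 15227 genes that passed this filter. *Rarb* did not pass, and *Cyp26a1* passed only through the induced time points.

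Bulk RNA-seq came from 32 samples, 4 replicates at each of 8 time points, of KH2 mES cells (strain C57BL/6 in the labels) that all carry one TET-responsive transgene for GATA6 and the DsRed2 reporter. The 0 h cells received no Dox and were kept in 2i medium, which holds LIF and inhibitors of MEK and GSK3 and no serum. The 2, 4 and 8 h cells were in serum medium with LIF and Dox for that time, and the 16, 24, 48 and 96 h cells had Dox in the same medium for 12 h and then the medium without Dox. The medium was thus exchanged when Dox was added, and the 2 cannot be told apart in any comparison with 0 h. The 2, 48 and 96 h cells share the serum medium, but the 2 h cells had been in it for only 2 h and with Dox present. No sample was in serum medium without having had Dox. The transgene sits in 1 cell line, and the cells were not sorted for these libraries. The paper calls the RNA-seq replicates biological and states that replicates were done independently, without describing how their cultures were kept apart. With 1 line, p-values measure the spread between these samples only.

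Retinol taken up by a cell is oxidized to retinaldehyde and then to retinoic acid, and DHRS3 runs the first step backwards. Retinoic acid moves with the CRABP proteins, binds RARs that sit on DNA as pairs with retinoid X receptors, and is broken down by the CYP26 enzymes. *Cyp26a1*, *Dhrs3* and *Rarb* are textbook genes induced by retinoic acid. Endoderm of the yolk sac is known for retinol transport, and retinoic acid was long used to turn embryonal carcinoma cells into endoderm.

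Between 3190108 and 12301732 reads fell on genes in each sample, and the level of a gene is its read number over the authors' size factor of the sample (normalized count). Endogenous *Gata6* averaged 0.371 at 0 h, 14.9 after 2 h and 2067 after 96 h. The transgene row averaged 0 at 0 h, 618 after 2 h and 65.7 after 16 h. The summed level of 8 pluripotency markers had a median of 38404 at 0 h and 2994 at 96 h, and that of 8 PrE markers 66.1 at 0 h, 66460 at 48 h and 49803 at 96 h. Of 6 visceral endoderm markers, *Afp*, *Apoa1* and *Apob* did not pass the filter, whereas *Hnf4a*, *Rbp4* and *Ttr* did. The summed level of all 6 had a median of 9.96 at 0 h, 830 at 48 h and 410 at 96 h. At 48 h this sum was mostly *Hnf4a*. In bulk RNA, fewer cells of a type and less RNA per cell cannot be told apart, and the part that the changing mix of cells has in the results was not tested. Replicates 1 and 2 stood apart from replicates 3 and 4. For 2 samples of 1 time point, chi-square over degrees of freedom had a median of 1.57 within these sets (16 pairs) and 10.9 between them (32 pairs). The p-values below treat the 4 samples of a time point as independent, which samples of a set may not be, so they may be too small. With each set averaged to 1 sample, 15 of the 68 changes of the 8 tested genes did not pass. For *Cyp26a1* from 4 to 8 h, the limma adjusted p was then 0.071 instead of 1.05e-04.

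Promoters of 7 of the 9 genes, 250 bases before to 50 after each RefSeq start on GRCm38.p6, were searched on both strands for direct repeats of the retinoid hexamer AGGTCA or of its variants, which were AGTTCA as well as GGGTCA and also GGTTCA. *Crabp2* and *Rdh10* had no entry. With 5 bases between the hexamers (DR5, the classical retinoic acid response element), a repeat was present in 0.0974% of all 32851 promoters and in 1 promoter each of *Cyp26a1* and *Rarb*. Repeats with 1 base (DR1) or 2 bases (DR2) between were in none of the 13 promoters of these 7 genes, against 0.222% and 0.268% of all promoters. GATA motifs (AGATAA or TGATAA) were in 18.6% of all promoters and, among these genes, in 1 promoter of *Rarg*. The matches are descriptions of letters and were not tested for binding. The 100 bases before the start are shown because these 2 genes carry the repeat, with its hexamers in capitals.
*Cyp26a1*, plus strand, chr19:37697708-37697807, with the repeat on the opposite strand at chr19:37697776-37697792: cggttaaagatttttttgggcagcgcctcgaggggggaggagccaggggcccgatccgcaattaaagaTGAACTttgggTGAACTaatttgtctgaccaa
*Rarb*, minus strand, chr14:16575477-16575576, with the repeat on the strand of the gene at chr14:16575513-16575529: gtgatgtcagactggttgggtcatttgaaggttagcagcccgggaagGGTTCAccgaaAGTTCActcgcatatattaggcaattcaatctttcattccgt
The repeat lay 32 to 16 bases upstream of the start in *Cyp26a1* and 53 to 37 bases upstream in *Rarb*.

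*Cyp26a1* (ENSMUSG00000024987, chr19:37697798-37701536) had the largest change from 0 h of the 8 tested genes at every time point but 24 h, and it moved up, down and up again. At 0 h no read fell on it in any of the 4 replicates. At 2 h replicates 1 to 4 had normalized counts of 8.31, 9.06, 14.1 and 9.85, at 4 h 45.5, 38.8, 58.5 and 59.8, and at 8 h 96.6, 116, 226 and 191. Each of these steps separated all 4 samples from all 4 of the time point before. At 16 h, after Dox had been withdrawn, the values were 24.4, 21.2, 47.9 and 39.7, and at 24 h they were 1.20, 1.25, 2.03 and 0.815, from 1 or 2 reads each. They then stood at 178, 173, 111 and 110 at 48 h and at 468, 447, 372 and 332 at 96 h. The samples therefore showed a first peak at 8 h, a trough at 24 h near the level of single reads, and a higher level at 96 h than at any other time point. Ordered by mean level, neighbouring time points overlapped only between 8 and 48 h and between 4 and 16 h.

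Against 0 h, *Cyp26a1* rose at every later time point on the log2(normalized count + 1) scale, by 3.48 ± 0.26 (SE) at 2 h (adjusted p = 7.91e-12) and by 8.65 ± 0.26 at 96 h (adjusted p = 1.53e-22). It passed the filter only through the induced time points, so a rise from 0 h at some of them was given in advance. The p-values against 0 h are therefore no separate support for a rise of this gene. Because its 0 h samples hold no read, folds are lower bounds against a floor of 3 reads per library (a normalized count of 3.57): at least 2.89-fold higher at 2 h, 14.2-fold at 4 h, 44.1-fold at 8 h, 9.34-fold at 16 h, 40.2-fold at 48 h and 113-fold at 96 h. At 24 h it stayed under this floor, and its rise of 1.19 (adjusted p = 3.02e-04) rests on 5 reads in all 4 samples together and did not pass the test with limma-voom or with a pseudocount of 5. Between neighbouring time points it rose from 2 to 4 h by 2.19 (adjusted p = 4.13e-07), where 0.558% of all tested genes were higher at the 4-fold threshold (a size it did not reach with a pseudocount of 5 or on the deposited scale), and from 4 to 8 h by 1.55 (adjusted p = 1.05e-04). It fell by 2.20 from 8 to 16 h (adjusted p = 4.44e-07), a step at which 0.539% of tested genes were lower by 4-fold or more, and by 3.83 from 16 to 24 h (adjusted p = 9.82e-12). From 24 to 48 h the rise was 5.94 (adjusted p = 7.55e-17), at least 40.9-fold against the floor. Replicates 3 and 4 were the higher set in the first peak and replicates 1 and 2 at 48 and 96 h, but the direction was the same within each set at every step.

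**Figure D1:**
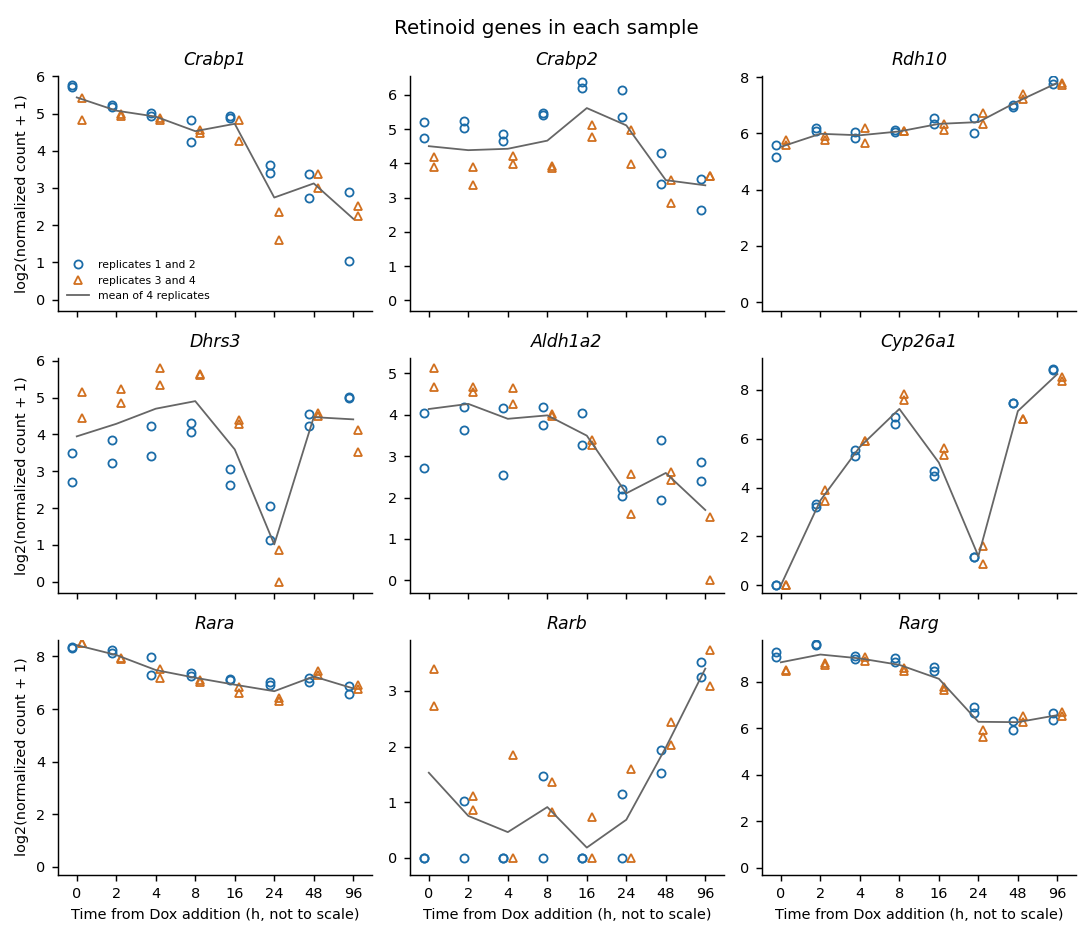
Level of each of the 9 genes in every sample, as log2(normalized count + 1), against time after Dox addition (spaced evenly). Circles are replicates 1 and 2, triangles replicates 3 and 4, and the line joins the means of 4. *Cyp26a1* peaks at 8 h, is at 1 or 2 reads per sample at 24 h and is highest at 96 h, and *Dhrs3* has its lowest values at 24 h.

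*Dhrs3* (ENSMUSG00000066026, chr4:144892827-144928209), which reduces retinaldehyde back to retinol, shared the trough. At 16 h replicates 1 to 4 had 5.22, 7.33, 18.6 and 19.9 normalized counts, at 24 h 1.20, 3.13, 0 and 0.815, and at 48 h 17.9, 22.6, 22.9 and 21.7. All 4 samples at 24 h lay below all samples of every other time point. It fell by 2.58 ± 0.57 from 16 to 24 h (adjusted p = 0.0012) and rose by 3.46 ± 0.57 from 24 to 48 h (adjusted p = 7.80e-06). Fewer genes changed as far over these steps than over the longer comparisons: 0.729% of tested genes were lower by 4-fold or more at 24 h than at 16 h, *Cyp26a1* and *Dhrs3* among them, and 2.51% were higher at 48 h than at 24 h, again with both genes. The fall from 16 to 24 h was 1.26 within replicates 1 and 2 and 3.91 within replicates 3 and 4, and it did not pass the test when each set was averaged to 1 sample. The 24 h samples held 0 to 5 reads of this gene.

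The sets of *Dhrs3* values went opposite ways late in the course. Replicates 1 and 2 stood at 5.52 and 10.2 at 0 h and at 30.8 and 31.6 at 96 h, whereas replicates 3 and 4 stood at 34.7 and 20.8 at 0 h and at 16.3 and 10.4 at 96 h. The pooled difference of 0.46 at 96 h did not pass the test (adjusted p = 0.47), and it was 1.91 within the first set and -0.99 within the second. Its sets did not overlap at 7 of the 8 time points. The summed mesoderm markers also differed between sets, with means of 431 and 57.9 at 0 h. This sum was mostly *T*, which averaged 235 at 0 h, beside 6.65 for *Mixl1*. The 4 markers of 2-cell-like cells differed too, with 1.37 and 71.9. Their part in the *Dhrs3* difference was not tested.

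*Rdh10* (ENSMUSG00000025921, chr1:16105774-16133734), which oxidizes retinol to retinaldehyde, was higher at every later time point than at 0 h and highest at 96 h. Its replicates had 34.5, 47.6, 46.7 and 52.9 normalized counts at 0 h, 121, 128, 148 and 167 after 48 h, and 215, 239, 211 and 219 after 96 h. The 3 time points did not overlap. It rose at each time point against 0 h, by 0.46 ± 0.15 at 2 h (adjusted p = 0.015), by 1.62 at 48 h (adjusted p = 8.03e-11) and by 2.27 at 96 h (adjusted p = 2.19e-14). The early rises at 2 and 4 h did not pass the test without replicate 1 (0.31 and 0.32), without replicate 2 (0.42 and 0.40) or with each set averaged (adjusted p = 0.11 and 0.14), and no step between neighbouring time points from 2 to 24 h passed. Later steps were from 24 to 48 h, by 0.74 (adjusted p = 1.49e-04), and from 48 to 96 h, by 0.66 (adjusted p = 6.34e-04).

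*Aldh1a2* (ENSMUSG00000013584, chr9:71215789-71296243) was low throughout, with at most 42 reads in a sample. Its replicates had 5.52, 15.6, 33.9 and 24.6 normalized counts at 0 h, 3.60, 3.13, 2.03 and 4.89 after 24 h, and 4.24, 6.31, 0 and 1.89 after 96 h. The 24 h samples lay below all 0 h samples, but replicate 2 at 96 h was above replicate 1 at 0 h. It fell by 2.04 ± 0.50 at 24 h (adjusted p = 9.68e-04), by 1.55 at 48 h (adjusted p = 0.0077) and by 2.44 at 96 h (adjusted p = 7.67e-05). The fall at 96 h was 0.75 within replicates 1 and 2 and 4.13 within replicates 3 and 4. Without replicate 3 the changes were -1.54 after 24 h and -1.55 after 96 h, which is below 4-fold.

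Of the other retinaldehyde dehydrogenases on the list, *Aldh1a1* and *Aldh1a3* were tested. *Aldh1a1* averaged 1.11 ± 1.80 (SD, n = 4) normalized counts at 0 h, 23.0 ± 10.5 after 24 h, 66.1 ± 29.7 after 48 h and 23.6 ± 2.62 after 96 h. It rose by 5.20 at 48 h (adjusted p = 1.12e-10) and was at least 18.5-fold above the 0 h floor. Its highest 0 h sample was at 3.78, so it passed the filter through later time points and had to differ from 0 h. *Aldh1a3* averaged 85.5 ± 51.0 at 0 h, 147 ± 50.1 after 24 h and 14.1 ± 4.17 after 96 h. It fell by 2.35 at 96 h (adjusted p = 9.13e-07).

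*Crabp1* (ENSMUSG00000032291, chr9:54764748-54773110) was lower from 24 h on. Its replicates had 53.8, 51.6, 27.4 and 41.6 normalized counts at 0 h, 29.6, 28.5, 27.3 and 18.1 after 16 h, 9.61, 11.3, 2.03 and 4.08 after 24 h, and 6.37, 1.05, 3.77 and 4.73 after 96 h. From 24 h on, all samples lay below all earlier ones. Against 0 h the gene fell by 2.69 ± 0.35 at 24 h (adjusted p = 1.05e-07), by 2.31 at 48 h (adjusted p = 8.38e-07) and by 3.26 at 96 h (adjusted p = 9.81e-10). Smaller falls of 0.91 at 8 h and 0.71 at 16 h passed the test (adjusted p = 0.035 and 0.095) but not without replicate 2 (-0.72 and -0.67) or replicate 4 (-0.90 and -0.56), and the one at 16 h not without replicate 1 (-0.66). Neither passed with each set averaged (adjusted p = 0.15 and 0.25). Between neighbouring time points it fell by 1.98 from 16 to 24 h (adjusted p = 9.14e-05) and by 0.95 from 48 to 96 h (adjusted p = 0.025), the latter not without replicate 2 (-0.70) or with each set averaged (adjusted p = 0.12).

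*Crabp2* (ENSMUSG00000004885, chr3:87948666-87953376), the carrier known to pass retinoic acid to RARs in the nucleus, was highest at 16 h. Its replicates had 35.9, 25.8, 13.7 and 17.0 normalized counts at 0 h, 73.1, 81.5, 26.0 and 33.7 after 16 h, and 9.42, 18.8, 6.16 and 10.3 after 48 h. Replicates 1 and 2 were above replicates 3 and 4 at 6 time points with no overlap, so the 0 and 16 h ranges overlapped although both sets were higher at 16 h, by 1.31 and 0.91. The pooled rise was 1.11 ± 0.48 (adjusted p = 0.055), and without replicate 2 it was 0.94 and did not pass, nor did it with each set averaged (adjusted p = 0.26). The fall from 24 to 48 h was 1.60 (adjusted p = 0.0058, and 0.093 with each set averaged). The falls of 0.99 at 48 h (adjusted p = 0.065) and 1.14 at 96 h (adjusted p = 0.032) against 0 h did not pass with limma-voom or without replicate 1 (-0.71 and -0.97), nor did the former without replicate 3 (-0.98) and the latter without replicate 2 (-0.82). With each set averaged they had adjusted p = 0.24 and 0.16.

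Per kilobase of exon, *Crabp2* made up 23.8 ± 3.69% (SD, n = 4) of the summed *Crabp1* and *Crabp2* level at 0 h, 53.2 ± 11.9% after 16 h, 77.0 ± 10.7% after 24 h and 44.9 ± 14.8% after 48 h. All 24 h samples, the lowest at 68.0%, were above all 16 h samples, the highest at 63.4%. These shares rest on few reads, with 1 to 18 of *Crabp1* per sample at 24 h and 3 to 10 at 48 h. The sum itself was 71.8 ± 22.0 normalized counts per kb at 0 h and 12.2 ± 4.77 at 96 h. These shares were not tested.

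**Figure D2:**
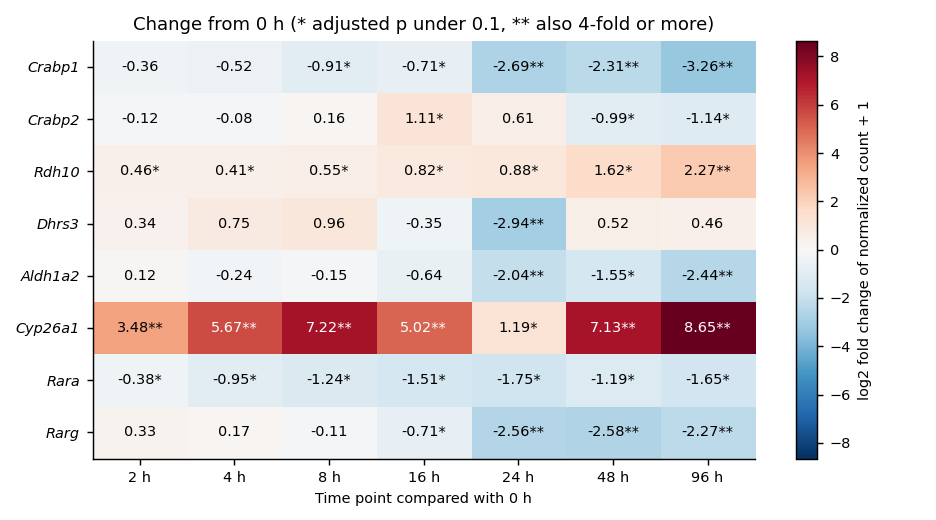
Log2 fold change of normalized count + 1 against 0 h for the 8 tested genes, with 1 asterisk where the limma adjusted p is under 0.1 and 2 where the change is also 4-fold or more. *Cyp26a1* carries 2 asterisks at every time point except 24 h, where 4 other genes carry 2 for a fall.

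*Rarg* (ENSMUSG00000001288, chr15:102234938-102257517) was the RAR gene with the largest fall. Its replicates had 541, 617, 364 and 355 normalized counts at 0 h, 780, 755, 446 and 416 after 2 h, 349, 393, 220 and 199 after 16 h, 119, 101, 58.9 and 48.1 after 24 h, and 81.7, 101, 90.4 and 102 after 96 h. All samples from 24 h on lay below all earlier samples, and the means at 24, 48 and 96 h had overlapping ranges. The gene fell by 0.71 ± 0.25 at 16 h (adjusted p = 0.019), by 2.56 at 24 h (adjusted p = 3.62e-10) and by 2.58 at 48 h (adjusted p = 1.52e-10) against 0 h. The fall at 16 h did not pass with each replicate set averaged to 1 sample (adjusted p = 0.18). Most of the fall lay between 16 and 24 h, at 1.85 (adjusted p = 2.20e-06).

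*Rara* (ENSMUSG00000037992, chr11:98927818-98974942) fell earlier and less far. Its replicates had 319, 325, 368 and 368 normalized counts at 0 h, 301, 279, 239 and 245 after 2 h, 167, 151, 135 and 130 after 8 h, 131, 121, 85.3 and 78.3 after 24 h, 145, 130, 172 and 157 after 48 h, and 117, 94.7, 121 and 107 after 96 h. All 28 later samples lay below the 4 samples at 0 h. The fall was 0.38 ± 0.16 at 2 h (adjusted p = 0.065), 1.24 at 8 h (adjusted p = 2.20e-07) and 1.75 at 24 h (adjusted p = 1.19e-10), and the one at 2 h did not pass without replicate 3 (-0.29) or 4 (-0.31) or with each set averaged (adjusted p = 0.27). From 24 to 48 h it rose by 0.56 (adjusted p = 0.0043, and 0.069 with each set averaged), with 0.13 in replicates 1 and 2 and 1.00 in replicates 3 and 4. From 48 to 96 h it fell by 0.46 (adjusted p = 0.02), which did not pass with each set averaged (adjusted p = 0.14).

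*Rarb* (ENSMUSG00000017491, chr14:16430839-16819156), whose promoter carries the repeat shown above, had few reads. Its replicates had 0, 0, 5.64 and 9.44 normalized counts at 0 h, 2.83, 1.88, 4.40 and 3.10 after 48 h, and 8.49, 10.5, 7.53 and 12.3 after 96 h. Between 2 and 24 h no sample had more than 3 reads. All 96 h samples were above all samples from 2 to 48 h, but not above both 0 h samples with reads. In the fit without the filter (33786 rows) the difference from 0 h at 96 h was 1.87 ± 0.58 (adjusted p = 0.0094), and from 2 h it was 2.65 (adjusted p = 3.17e-04). The difference from 0 h lay mostly in replicates 1 and 2, with means of 0 at 0 h and 9.50 at 96 h. In replicates 3 and 4 the means were 7.54 and 9.91. Exons of *Rarb* overlap *Top2b* on the opposite strand, which reached a normalized count of 1663. Per the paper, the libraries were made with a stranded kit. With the strand setting of the counting not given in the sources used here, reads where the exons of the 2 genes overlap may not be told apart.

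Per kilobase of exon, the summed RAR level was 190 ± 24.2 (SD, n = 4) normalized counts at 0 h, 202 ± 52.2 after 2 h, 43.1 ± 13.8 after 24 h and 49.0 ± 1.78 after 96 h. *Rarg* made up 57.2 ± 8.80% of this sum at 0 h, 74.8 ± 1.23% after 8 h, 33.7 ± 3.61% after 48 h and 44.9 ± 4.45% after 96 h. *Rara* made up 42.4 ± 8.32% at 0 h, 25.1 ± 1.20% at 8 h and 65.2 ± 3.48% at 48 h. *Rarg* thus had the larger share in all samples from 2 to 16 h and *Rara* in all samples at 24 and 48 h, whereas at 0 and 96 h their ranges overlapped. With the longest transcript as the length, the ranges overlapped at 24 h too, 48.8 to 58.7% for *Rara* and 41.3 to 50.8% for *Rarg*. *Rarb* reached 3.76 ± 0.791% at 96 h. The shares were not tested.

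**Figure D3:**
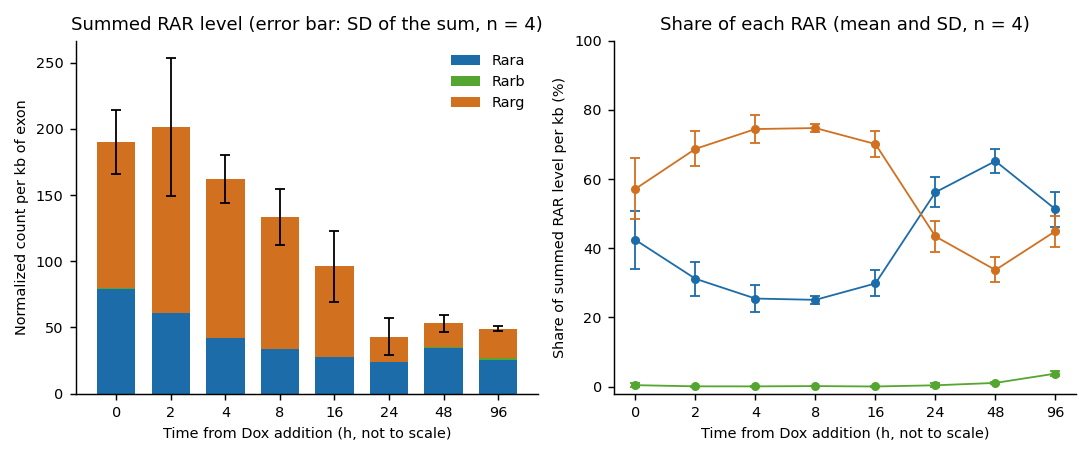
Left, summed level of the 3 RAR genes in normalized counts per kb of exon at each time point, with the mean of each gene stacked and the SD of the sum as error bar (n = 4). Right, share of each gene in that sum in percent (mean and SD, n = 4). The sum is 43.1 at 24 h against 190 at 0 h, and by these lengths *Rara* has the larger share at 24 and 48 h.

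At the threshold of an FDR under 0.1 and a 4-fold change, 1 of the 8 tested genes, *Cyp26a1*, was higher and none lower than at 0 h at each of 2, 4, 8 and 16 h. *Cyp26a1* passed the filter only through the induced time points, so a rise of it from 0 h at some of them was given in advance. At any size, *Rdh10* was also higher at all 4 of these time points and *Rara* lower, with *Crabp1* lower at 8 and 16 h, and *Rarg* lower and *Crabp2* higher at 16 h. Calls of any size were common, and the shares of all tested genes with such a rise were 22.2% after 2 h, 24.7% after 4 h, 26.3% after 8 h and 28% after 16 h. Falls of any size made up 22.6% after 2 h, 23.8% after 4 h, 22.8% after 8 h and 25.3% after 16 h. At 4-fold, the shares of all tested genes that were higher were 2% after 2 h, 2.69% after 4 h, 3.4% after 8 h and 4.03% after 16 h. At 4-fold, the shares that were lower were 0.348% after 2 h, 0.709% after 4 h, 1.31% after 8 h and 2.4% after 16 h. At 24 h none of the 8 was higher and 4 were lower (*Aldh1a2*, *Crabp1*, *Dhrs3* and *Rarg*), where 4.85% of all tested genes were higher and 4.34% lower. At 48 h *Cyp26a1* was higher and *Crabp1* and *Rarg* were lower, beside 8.48% and 7.09% of all tested genes. At 96 h *Cyp26a1* and *Rdh10* were higher and *Aldh1a2*, *Crabp1* and *Rarg* lower, beside 9.28% and 10.3%.

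Without the 4-fold threshold, 2 genes were higher (*Cyp26a1* and *Rdh10*) and 5 lower (*Aldh1a2*, *Crabp1*, *Crabp2*, *Rara* and *Rarg*) at both 48 and 96 h. A call at this level was common, since 36.1% of all tested genes passed it upwards and 37.3% downwards at 48 h, and 38% and 38.5% at 96 h. The median log2 change of the 8 genes was -1.90 at 24 h, -1.09 at 48 h and -1.39 at 96 h, against 0, -0.02 and -0.03 for all tested genes. Comparisons with 2 h lie within the serum medium. The 2 h cells had left 2i only 2 h before, so late effects of the medium cannot be told apart from those of GATA6. Against 2 h, *Cyp26a1* was higher by 3.66 at 48 h and 5.17 at 96 h, *Rarg* lower by 2.91 and 2.61, and *Rdh10* higher by 1.15 and 1.81. At the 4-fold threshold *Cyp26a1* was the gene higher at both time points, where 8.5% and 9% of all tested genes were. *Rarg* was lower at 48 h (7.65% of tested genes), and *Aldh1a2*, *Crabp1* and *Rarg* at 96 h (10.6%). *Crabp1* was lower by 2.91 and *Aldh1a2* by 2.57 at 96 h (adjusted p = 1.04e-08 and 3.97e-05).

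Of 48 other genes of retinoid uptake, storage, metabolism and receptor function, 28 were tested. At 48 h, 15 rose and 10 fell at any size (36.1% and 37.3% of all tested genes did), of which 7 and 2 reached 4-fold (8.48% and 7.09% of all). At 96 h, 13 rose and 10 fell (38% and 38.5% of all), of which 7 and 1 reached 4-fold (9.28% and 10.3% of all). The median log2 change of the 28 genes was 0.59 at 48 h and 0.36 at 96 h. *Cyp26b1*, *Aldh1a1* and *Ttr* rose most at 48 h, and *Stra6*, *Ttr* and *Cyp26b1* at 96 h. Of the 7 genes higher by 4-fold at each of these time points, all but *Akr1b8* had no 0 h sample at 10 normalized counts, so that they passed the filter through the time points where they are high and had to differ from 0 h.

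*Stra6*, the membrane receptor that takes up retinol from its carrier in blood, had at most 1 read per sample at the 6 time points up to 24 h. It averaged 59.3 ± 43.1 (SD, n = 4) normalized counts at 48 h and 523 ± 132 at 96 h, at least 16.6-fold and 147-fold above the floor. *Cyp26b1*, the second CYP26 hydroxylase, averaged 0.547 at 0 h, 1.85 after 8 h, 46.6 ± 12.0 after 24 h, 161 ± 20.1 after 48 h and 53.8 ± 8.68 after 96 h. At 24 h, when *Cyp26a1* was at its trough, *Cyp26b1* was therefore at least 13.1-fold above the 0 h floor, and at 96 h, when *Cyp26a1* was highest, all *Cyp26b1* samples lay below those of 48 h. *Ttr*, which carries retinol-binding protein in blood, had no read at 0 h and averaged 22.5 at 48 h and 52.6 at 96 h, and *Rbp4*, the retinol-binding protein itself, averaged 0.711 at 0 h and 17.0 at 96 h. *Stra6* is also one of the parietal endoderm markers, and *Ttr* and *Rbp4* are among those of visceral endoderm. The summed parietal list had a median of 5303 at 0 h and 309188 at 96 h. It was mostly *Sparc* at 0 h, with a mean of 4252. At 96 h it was mostly *Col4a1*, *Sparc* and *Lamb1*, with means of 122854, 113233 and 70383. The part of parietal endoderm in these rises was not tested.

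The remaining genes past 4-fold included 2 aldo-keto reductases of opposite direction. *Akr1b8* rose by 3.08 at 48 h (adjusted p = 5.69e-07) and *Akr1b3* fell by 2.25 (adjusted p = 1.01e-08). *Fabp5*, a fatty acid carrier that also binds retinoic acid, fell by 2.16 at 48 h (adjusted p = 6.49e-04), from 60.8 ± 41.9 to 11.5 ± 5.48 normalized counts (SD, n = 4). *Bco2*, a carotenoid cleavage enzyme, rose by 4.35 at 48 h, and *Adh7*, an alcohol dehydrogenase, by 2.16 at 96 h. Earlier, the genes past 4-fold were *Rbp4* at 4 and 8 h, *Rbp4*, *Aldh1a1* and *Cyp26b1* at 16 h, and *Aldh1a1*, *Bco2* and *Cyp26b1* at 24 h, all higher. Those up to 16 h rest on few reads, with 1 to 14 of *Rbp4* per sample at 4 h. Against the floor, *Rbp4* was at least 2.67-fold higher at 8 h and 1.89-fold at 16 h, and *Cyp26b1* 2.14-fold at 16 h. None of these genes had a 0 h sample at 10 normalized counts, so they passed the filter through later time points. Among the receptors' partners, *Rxra* fell by 0.44 at 48 h (adjusted p = 0.0067) and *Rxrb* rose by 0.51 (adjusted p = 2.36e-05), and neither passed the test at 96 h.

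**Figure D4:**
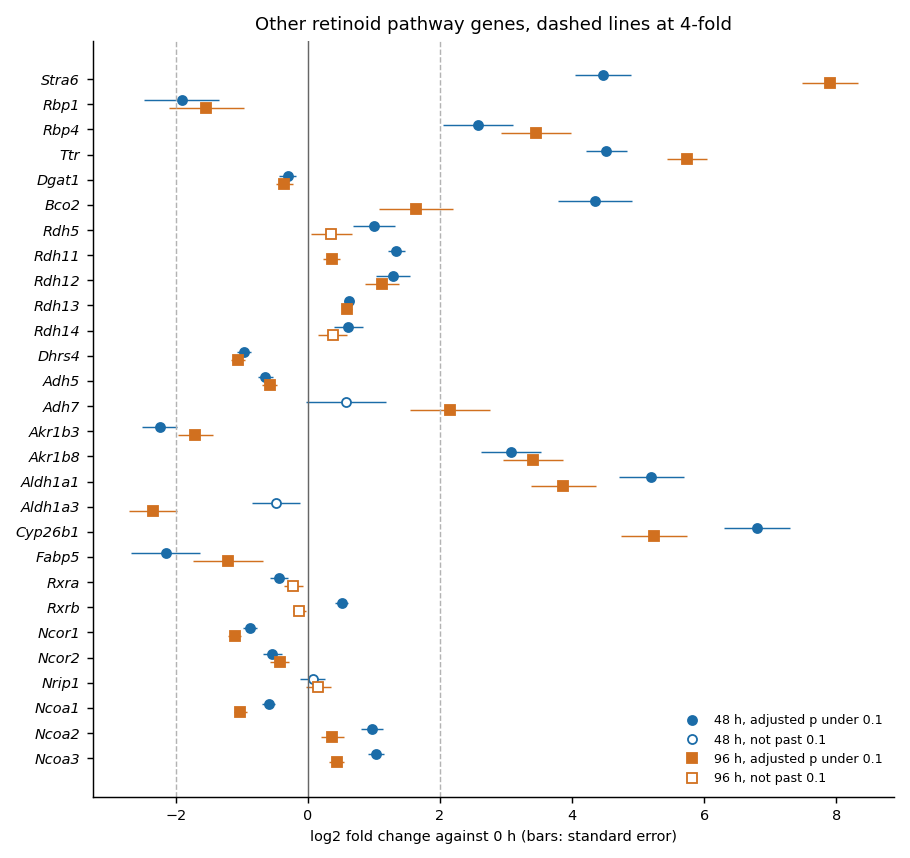
Log2 fold change against 0 h, with its standard error, of the 28 tested genes of the retinoid list at 48 h (circles) and 96 h (squares). Filled symbols have an adjusted p under 0.1 and dashed lines mark 4-fold. *Stra6*, *Cyp26b1*, *Aldh1a1* and *Ttr* lie to the right of the upper line at both time points.

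**Figure D5:**
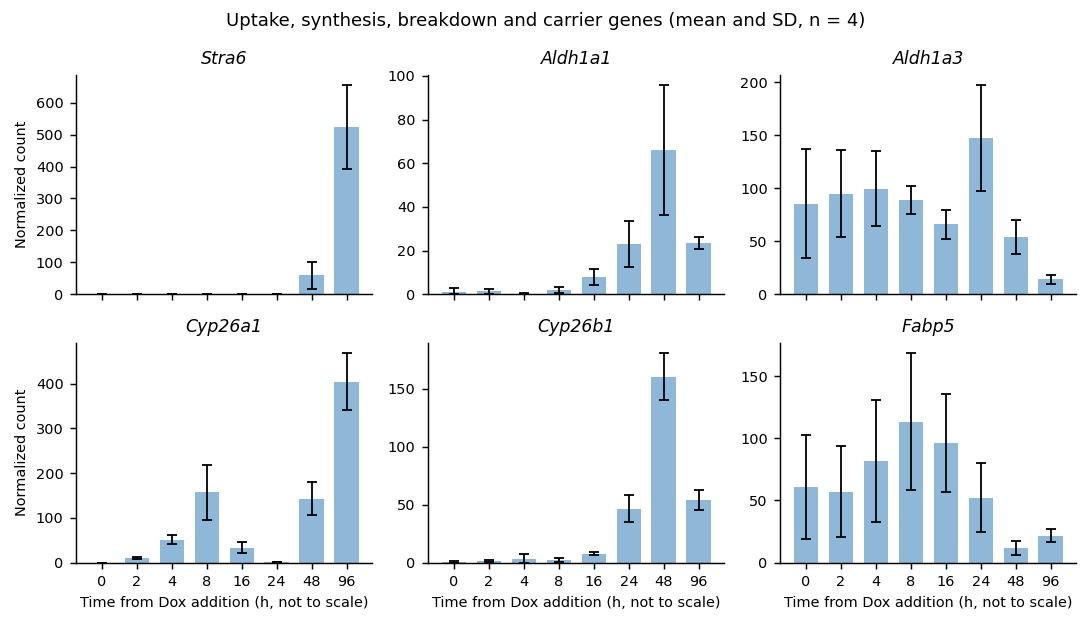
Mean normalized count with SD (n = 4, cut at 0) at each time point for *Stra6*, *Aldh1a1*, *Aldh1a3*, *Cyp26a1*, *Cyp26b1* and *Fabp5*, each on its own axis from 0. *Cyp26b1* is highest at 48 h at 161, and *Cyp26a1* and *Stra6* at 96 h at 405 and 523.

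Of 15 genes known to respond to retinoic acid, 12 were tested, and they did not move one way. At 48 h, *Hoxb4* and *Meis1* were higher and *Cdx1*, *Meis2* and *Stra8* lower by 4-fold or more, beside 8.48% and 7.09% of all tested genes. At 96 h *Nr2f2* was higher as well, beside 9.28% of all tested genes higher and 10.3% lower. The 0 h samples of *Stra8* ranged from 8.15 to 110 normalized counts. *Meis1* averaged 10.1 at 0 h and 219 at 96 h. *Cdx1* averaged 589 at 0 h, 11.1 at 24 h and had no read at 96 h. *Tgm2*, a transglutaminase, had its lowest mean at 24 h, 7.45 ± 5.58 (SD, n = 4), against 97.3 ± 74.7 at 0 h, 25.1 ± 1.92 after 48 h and 142 ± 96.9 after 96 h. It fell by 3.41 at 24 h against 0 h (adjusted p = 1.88e-05).

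The genes most like each of the 8 in pattern were found by Pearson correlation over the 32 samples on the log2 scale, where samples of a time point and a set share their source. *Cyp26a1* was most like *Kctd10* (r = 0.947), *Hdc* (0.915) and *S100a11* (0.902). *Dhrs3* was most like *Sh3d21* (0.856), *Tgm2* (0.837) and *Sox21* (0.786). For *Rarg* these were *Enox1* (0.977), *Aoah* (0.957) and *Slc7a3* (0.946), and for *Rdh10* *Zmpste24* (0.965), *Smurf1* (0.960) and *Akt1* (0.959). *Crabp1* was closest to *1700019D03Rik* (0.936), *Tdgf1* (0.934) and *Gm2694* (0.919), and *Crabp2* to *Gldc* (0.912), *Ssbp1* (0.849) and *Tcea1* (0.843). *Aldh1a2* was closest to *Mog* (0.874), *Dppa3* (0.865) and *Alpk3* (0.863), and *Rara* was close to *Tdh* (0.922) and *Apobec3* (0.922). Among the 8 genes themselves, the highest r was 0.885 between *Crabp1* and *Rarg* and the lowest -0.808 between *Crabp1* and *Rdh10*, and *Cyp26a1* and *Dhrs3* had an r of 0.541.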

How the data were processed

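Per the submitters' notes and methods, the authors used cutadapt 2.7 for trimming, HISAT2 2.1.0 for alignment to GRCm38.p6 and featureCounts (Subread 1.6.4) with GENCODE genes, and deposited variance-stabilized log2 values from DESeq2. The strand setting of the counting is not given in the sources used here. The lowest value, 1.58, stands for no reads and fixes the transformation. Inverting it gave counts over 1 size factor per sample, and whole reads (within 1e-06) for 100% of values. Reads on genes had a median of 8870662.5 per sample, and floors cover counting error only.

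The 15227 genes that reached 10 normalized counts in 4 samples were fitted with limma 3.58.1 on log2(normalized count + 1) (R 4.3.3, trend, all 32 samples, two-sided, Benjamini-Hochberg adjustment per comparison). "Rose" and "fell" mean an adjusted p under 0.1, and fold changes understate those of low genes. The procedure was tested on simulated data for 12200 genes and called 99 of 100 genes changed by a log2 fold of 1 and 100 of 100 changed by 3, with 33 unchanged genes called (0.275%). The simulation left out genes of low mean, gave all genes the same dispersion and had no difference between replicate sets. It therefore does not show how the procedure does on low genes or where the sets differ. Lengths and gene coordinates are from GENCODE M21 on GRCm38, promoters from RefSeq.

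The genes and lists were chosen with earlier results of these data known. The genes named are the 9, the 3 largest rises and falls of the retinoid list at 48 and 96 h past the threshold, all genes where a count in a direction was 5 or fewer, the 3 genes most like each tested gene, endogenous *Gata6*, the transgene and markers. The result for 1 gene named by this rule is not reported here. *Adh7*, *Rxra*, *Rxrb* and the genes known to respond to retinoic acid were named after their values were seen. Alternatives were TMM factors (ratio to the deposited scaling 0.982 to 1.01), pseudocounts of 0.5 and 5, other filters, a replicate block, replicate sets, limma-voom, the deposited values, only the time points compared, and each replicate left out.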

Additional observations from a re-analysis of the deposited data

Results flagged for a closer look

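Of 71 sets of 4 samples (each of the 9 genes at each time point, where values varied), 4 held a sample far from the other 3, and chance alone marks about 1 in 20 such sets. *Crabp2* at 96 h was 5.26 normalized counts in replicate 2, from 5 reads, against 10.6 to 11.3 in the others. *Aldh1a2* at 16 h was 15.5 in replicate 2, from 19 reads, against 8.65 to 9.49. *Rarb* was 2.60 in replicate 4 at 4 h, from 3 reads, and 0.666 in replicate 3 at 16 h, from 1 read, with 0 in the other replicates each time.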

How the results depend on the processing

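Summed over the 7 comparisons with 0 h, 7 results of the 8 genes were higher and 9 lower at 4-fold, 3 and 3 against the preceding time point, and 2 and 4 against 2 h; for the retinoid list against 0 h, 22 were higher and 3 lower. Without the 4-fold threshold these became 15 and 22, 8 and 10, 4 and 9, and 61 and 42. With a mean normalized count of at least 50 (fewer genes tested), 3 were lower against 0 h and 2 against 2 h, and 4 of the list were higher. With a pseudocount of 5, 5 were lower against 0 h and 13 of the list were higher, and with the deposited values as they are 14 of the list were higher. With no filter, 12 of the list were lower. Of the 28 results of the 8 genes at 4-fold, a mean of at least 50 lost 10, a pseudocount of 5 lost 8 (*Cyp26a1* at 2 h against 0 h and at 4 h against 2 h among them), the deposited values lost 6 (with *Cyp26a1* at 4 h against 2 h), replicates 1 and 2 alone lost 5 and replicates 3 and 4 alone 2, whereas TMM factors, limma-voom, the replicate block and the 2 time points alone lost 0. Leaving out replicate 3 lost 3, all of *Aldh1a2*, and leaving out replicate 1, 2 or 4 lost 0. Each set averaged lost 1, *Dhrs3* at 24 h against 16 h. Of the 68 changes at any size, 15 did not pass with each set averaged. Within replicates 3 and 4 alone, *Dhrs3* turned to -0.99 at 96 h against 0 h and -1.23 against 2 h, and *Rarg* to 0.62 at 48 h against 24 h; the cause was not tested. By the longest transcript, *Crabp2* had 30.7% of the CRABP level at 0 h against 23.8%. Deviations of same-numbered samples had a mean correlation of 0.196, as had samples of a set with different numbers (0.196), so the numbers do not pair samples; with the replicate block, 7 and 9 results against 0 h passed. Genes under 3 reads per library are not measurable at this depth.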
